A study of Mus musculus with 12 samples.

Results

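The genes described here encode the replication-dependent histones of the mouse. They were chosen by name and type: every gene of the raw count table whose GRCm38 symbol begins with Hist1h, Hist2h, Hist3h or Hist4h and whose annotated biotype is protein coding. This gave 64 of the 43629 genes in the table. The annotation lists 67 such genes, and 3 have no line in the table. By protein, the 64 genes encode 6 linker histones H1, 18 H2A, 15 H2B, 12 H3 and 13 H4. By position, 52 belong to the Hist1 cluster on chromosome 13, 9 to Hist2 on chromosome 3, 2 to Hist3 on chromosome 11 and 1 to Hist4 on chromosome 6. Their levels were read by RNA sequencing in 12 libraries of B cells sorted from mouse spleen. The aims were to compare cells deficient in the RNA-binding protein Zfp36l1 with control cells and to compare B cell subsets.

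The first group, deficient MZ, is 4 libraries of marginal zone (MZ) B cells of genotype Zfp36l1fl/flERT2cre/+ (replicates 1, 2, 7 and 8). The second, control MZ, is 4 libraries of MZ B cells of genotype ERT2cre/ERT2cre (replicates 3, 4, 5 and 6). The third, FO, is 4 libraries of follicular (FO) B cells of genotype Zfp36l1fl/fl cre- (replicates 3, 4, 7 and 8). The strain is given as Zfp36l1tm1.1Tnr for all libraries. The labels gate both subsets as positive for B220 and CD93, with high CD21 and no CD23 for MZ cells and with CD21 and CD23 for FO cells. The MZ groups thus carry different Zfp36l1 alleles and also different numbers of copies of ERT2cre, a Cre recombinase fused to an oestrogen receptor domain that a ligand switches on. The sources used here do not give ages or any treatment with that ligand. They also do not say that replicates of a group are separate animals, so the spread behind each p-value is that between these libraries and may be technical. MZ libraries were made with a SMARTer kit from 5 ng of RNA and read as 100 bp pairs, whereas the design text gives a stranded TruSeq mRNA kit and 100 bp single reads for FO libraries. The extraction protocol names the SMARTer kit for every library. Between MZ and FO, cell type, genotype, kit and read layout cannot be told apart.

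Histones package DNA: pairs of H2A, H2B, H3 and H4 form the core of the nucleosome and H1 binds the DNA that links nucleosomes. The replication-dependent genes lie in clusters, mostly lack introns, and are transcribed mainly in S phase, when new DNA needs new histones. Their mRNAs are cut just after a conserved stem-loop that the protein Slbp binds, and so end without the poly(A) tail of other mRNAs, although some of these genes can also yield longer, polyadenylated transcripts, more so in cells that do not divide. Both kits named here start from the poly(A) tail, so the counts need not reflect the whole of a cell's histone mRNA.

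The stem-loop sequences are shown first because they mark the mRNA end that these genes are known for. The motif was 16 bases, GGNNN followed by TTNTNA and NNNCC without a gap, and was searched in GENCODE M21 transcripts (GRCm38), on the sense strand and past the stop codon. It was found in 44 of the 64 genes, whereas 3.05% of the 20736 annotated genes with a 3′ untranslated region (3′ UTR) hold it there. Of the other 20 genes, 12 have no annotated 3′ UTR. The match comprised 8 different sequences. Below, the 16 bases of the motif are in capitals, with 5 bases on each side, written 5′ to 3′ as in the mRNA with T for U.
Hist1h1c, chr13:23739512-23739527, + strand: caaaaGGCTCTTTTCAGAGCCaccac
Hist1h2ao, chr13:21810898-21810913, + strand: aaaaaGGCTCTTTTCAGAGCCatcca
Hist1h3e, chr13:23561903-23561918, - strand: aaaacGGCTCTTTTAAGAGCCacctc
Hist2h2ac, chr3:96220418-96220433, - strand: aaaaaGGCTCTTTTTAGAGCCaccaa
Hist1h4c, chr13:23698089-23698104, - strand: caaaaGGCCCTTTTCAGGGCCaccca
Hist2h4, chr3:96262939-96262954, - strand: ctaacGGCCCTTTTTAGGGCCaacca
Hist1h4b, chr13:23757366-23757381, + strand: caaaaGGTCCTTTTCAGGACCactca

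The form in Hist1h1c and Hist1h2ao was the commonest, in 24 genes of the H1, H2A, H2B and H3 families. The form in Hist1h3e was in 6 genes and that in Hist2h2ac in 1. The form in Hist1h4c was in 7 genes, that in Hist2h4 in 2 and that in Hist1h4b in 2, all of them H4 genes. The base of the stem divided the families: all 12 H4 genes with a match began with GGNCC, and all 32 matches in the other families began with GGCTC. The motif began a median of 31.5 bases after the stop codon (range 21 to 58).

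Many of the annotated transcripts ran on past the stem-loop. The annotated transcript held a median of 91.0 bases after the motif, with a range of 3 to 4884. The polyadenylation signal AATAAA was found in the 3′ UTR of 18 of the 52 genes that have one, against 82.6% of all genes with a 3′ UTR. The examples below are the AATAAA sites of 4 genes that the comparisons turn on, with the signal in capitals. Hist1h2bc, Hist2h2be and Hist1h2bq have no match to the stem-loop motif in these transcripts.
Hist1h1c: atgcttctAATAAAaagcgttt
Hist1h2bc: gtatatatAATAAAtgtcatgt
Hist2h2be: ttattattAATAAAgttaccga
Hist1h2bq: gaatattaAATAAAtttgtttc

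In Hist1h1c, Hist2h2be and Hist1h2bq these sites lay 20, 16 and 21 bases before the annotated end, and in Hist1h2bc 441 bases before it. The AU-rich heptamer TATTTAT, a sequence that proteins of the Zfp36 family are known to bind, was in the 3′ UTR of 1 of the 52 genes, Hist1h1d, and in 29.4% of all genes with a 3′ UTR. The longest annotated 3′ UTR of these 52 genes had a median of 152 bases, against 1091 for all genes. A short 3′ UTR offers fewer places for any motif, so these shares are not matched for length.

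Depth was 28938453 to 40664963 counts per library. Zfp36l1 itself was at 22.0, 31.8, 28.1 and 37.5 CPM (counts per 1000000, scaled between libraries by edgeR's TMM factors) in deficient MZ replicates 1, 2, 7 and 8, and at 116, 110, 118 and 126 in control MZ replicates 3, 4, 5 and 6 (log2 −1.98, SE 0.13, edgeR adjusted p = 4.92e-07). The summed level of 4 MZ marker genes was 5270 to 5730 CPM in control MZ and 1200 to 1590 in FO libraries, and that of 3 FO marker genes 736 to 827 and 3610 to 3720. In deficient MZ libraries these sums were 4800 to 5340 and 966 to 1190 CPM, so the FO marker sum lay above control MZ without overlap. Of these markers, edgeR called 1 of 4 and 2 of 3 higher in deficient than in control MZ cells, against 2.29% of all genes tested. The part of this difference in the histone values was not tested. In bulk samples such as these, fewer cells of a type and less RNA per cell cannot be told apart.

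Histone mRNA counts were low for most of the 64 genes. In all 12 libraries together, 7 genes had no count and a further 7 had 1 to 9. The genes without a count were Hist1h2aa and Hist1h2ba, known for their expression in testis, and Hist1h2ag, Hist1h3b, Hist2h2aa1, Hist2h2aa2 and Hist2h3c1. In the last 3 of these, no stretch of 100 transcript bases, the length of a read, was free of a match in another annotated gene. Over the 64 genes, the median share of such unique 100-base windows was 62.2%, and 27 genes were under 50%, so reads from near-identical copies could be lost or divided between them. The filter on low counts left 25 genes tested in at least 1 comparison (4 H1, 7 H2A, 7 H2B, 1 H3 and 6 H4) and 20 tested in both, so 39 were tested in neither. Of the Hist1 genes, 13 of 30 were tested in the block at chr13:23531050-23934851 and 6 of 22 in the block at chr13:21715763-22043676, where the median share of unique windows was 70.4% and 26.5%.

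Genes with a longer annotated stretch after the stem-loop were tested more often. Of 17 genes with over 300 bases after the motif, 12 were tested in at least 1 comparison and the median level was 0.766 CPM per kb of exon, averaged over the 12 libraries. Of 27 genes with 300 bases or fewer, 8 were tested and the median was 0.121 CPM per kb. The rank correlation between this length and the level per kb was 0.291 across the 44 genes with a match, and 0.309 across the 30 of them with at least 50% unique windows. These genes share libraries and, in part, sequence, so this describes the annotation and these libraries and is not a test.

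**Figure D1:**
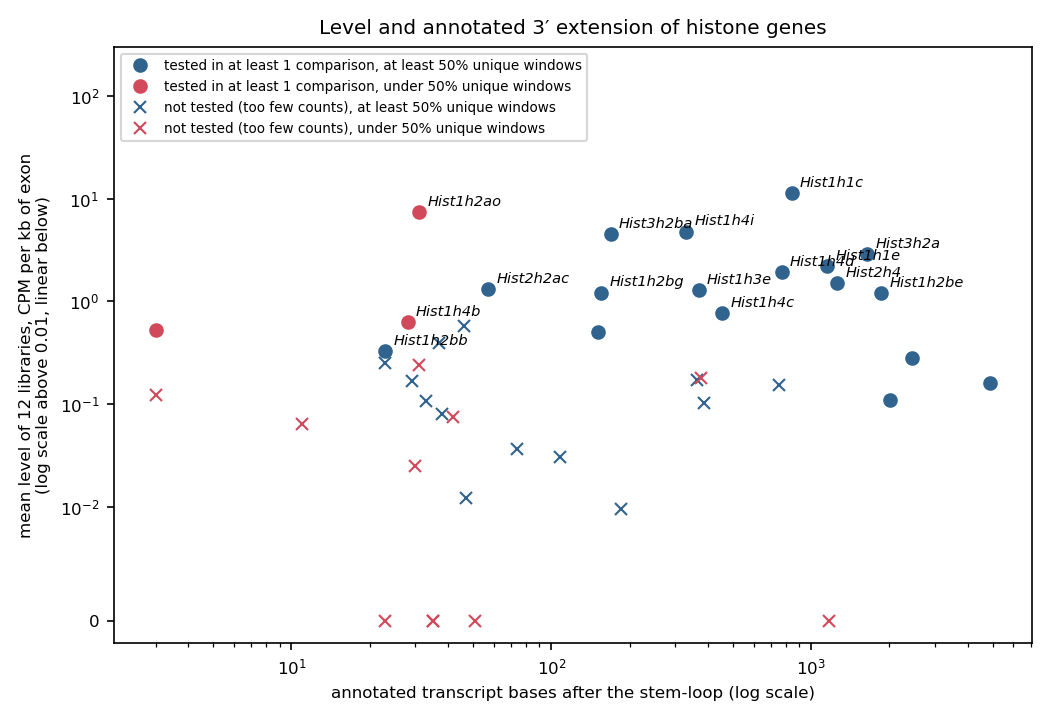
Each point is 1 of the 44 histone genes with a stem-loop match. The horizontal axis gives the annotated transcript bases after the motif on a log scale, and the vertical axis the mean level of 12 libraries in CPM per kb, on a log scale above 0.01 and a linear one below. Circles are genes tested in at least 1 comparison and crosses are genes with too few counts. Colour shows whether at least 50% of 100-base windows are unique. Circles outnumber crosses past 300 bases, and Hist1h2ao, with 31 bases after the motif, has the second highest level shown.

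Per kb of exon, the highest level over the 12 libraries was that of Hist1h1c, a linker histone gene, and the next were Hist1h2bc and Hist1h2ao, which encode H2B and H2A. Hist1h1c was at 12.7 ± 1.23 CPM per kb in deficient MZ, 8.74 ± 1.27 in control MZ and 12.4 ± 4.2 in FO cells (mean ± SD, n = 4 libraries each). Hist1h2bc was at 12.1 ± 1.67, 7.21 ± 0.754 and 3.11 ± 1.16 CPM per kb in the same order. Hist1h2ao was at 13.1 ± 2.91 and 9.24 ± 0.392 CPM per kb in deficient and control MZ cells, with no count in FO cells. These 3 genes lay within their spread of each other in deficient MZ cells, whereas in FO cells the genes next to Hist1h1c were the H2B genes Hist3h2ba (7.58 ± 1.15 CPM per kb) and Hist2h2be (7.07 ± 0.856). The highest H4 gene was Hist1h4i and the highest H3 gene Hist1h3e, at 4.34 ± 0.817 and 1.48 ± 0.294 CPM per kb in control MZ cells. Several replacement histones, which are made throughout the cell cycle from polyadenylated mRNA, stood above these levels: in control MZ cells H3f3b was at 289 ± 43.8 CPM per kb, H2afz at 48.5 ± 6.02 and H3f3a at 46.5 ± 5.08.

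The summed level of the 64 genes was higher in deficient than in control MZ cells. Deficient MZ replicates 1, 2, 7 and 8 held 94.9, 96.5, 87.3 and 83.6 CPM, control MZ replicates 3, 4, 5 and 6 held 71.8, 68.3, 65.3 and 65.7, and FO replicates 3, 4, 7 and 8 held 95.5, 76.1, 67.9 and 62.6. The deficient and control MZ libraries did not overlap, whereas FO libraries spread across the range of both. The means were 90.5 ± 6.16, 67.8 ± 3.01 and 75.6 ± 14.4 CPM, a ratio of 1.34 between deficient and control MZ. Scaled by library totals alone, the means were 96.2, 73.8 and 65.3 CPM, so the order of control MZ and FO depends on the scaling, which shifts the log2 difference between these groups by 0.33 for every gene and that between deficient and control MZ by −0.03. Hist1h1c alone made up 21.8%, 20.1% and 25.6% of the sum in deficient MZ, control MZ and FO cells, and the 5 highest genes of each group 61.1%, 61.5% and 68.8%. FO replicate 3 was the highest FO library for 13 of the 25 tested histone genes, against 24.7% of all genes tested, and without it the FO mean was 68.9 CPM.

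By family, the summed H1 level was 27.8 to 29.9 CPM in deficient MZ, 17.5 to 21.1 in control MZ and 17.4 to 33.5 in FO libraries. Deficient MZ libraries lay above control MZ libraries for H1, and FO libraries overlapped both. For H2A the ranges were 13.2 to 18.4, 11.8 to 14 and 5.95 to 9.48 CPM. The MZ groups overlapped for H2A and FO libraries lay below both. Most of the H2A difference between control MZ and FO was that of 1 gene, Hist1h2ao, with 7.35% unique windows. Its means were 4.43 and 0 CPM, of mean H2A sums of 12.6 and 7.43 CPM. Without Hist1h2ao, the H2A sums of FO libraries overlapped those of both MZ groups. For H2B the ranges were 29.5 to 34.6, 23.1 to 28.4 and 27.6 to 37.8 CPM, with deficient above control MZ. For H3 they were 2.81 to 3.27, 1.67 to 2.44 and 0.646 to 1.49 CPM, with the 3 groups apart. Nearly all of the H3 difference between control MZ and FO was that of 1 gene, Hist1h3e. Its means were 1.24 and 0.179 CPM, of mean H3 sums of 2.09 and 0.974 CPM, and without it the libraries of these groups overlapped. For H4 they were 9.15 to 11.7, 7.63 to 9.86 and 10.4 to 13.8 CPM, with deficient and control MZ overlapping and FO libraries above control MZ libraries. Scaled by library totals alone, the H4 ranges of control MZ and FO libraries overlapped, at 8.42 to 10.8 and 9.15 to 11.9 CPM, and the other comparisons of sums between deficient and control MZ and between control MZ and FO were as given.

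**Figure D2:**
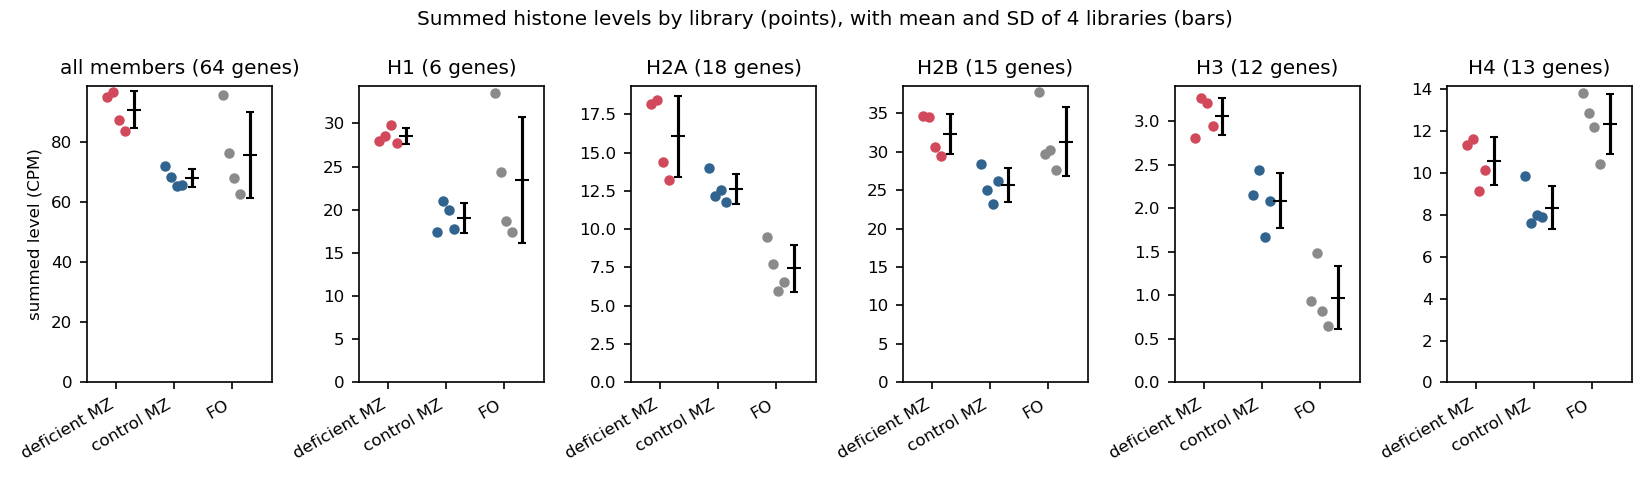
Summed level in CPM of all 64 histone genes and of each family (vertical axes, from 0), by library. Points are libraries, and bars give the mean and SD of 4 libraries in deficient MZ, control MZ and FO cells. For the sum of all genes the 4 deficient libraries, from 83.6 to 96.5 CPM, lie above the 4 control MZ libraries, from 65.3 to 71.8 CPM, and the FO libraries overlap both.

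The comparison of deficient with control MZ cells contrasts lower with higher Zfp36l1 mRNA. The groups also differ in copies of ERT2cre, and these differences cannot be told apart. Of the 23 histone genes tested, 2 were higher in deficient cells, the H2B gene Hist1h2bc and the H1 gene Hist1h1c. None (0) was lower and 21 were not called (edgeR quasi-likelihood, Benjamini-Hochberg adjusted p < 0.05 over 13987 genes). Of all genes tested, 3.7% were called, 2.29% as higher and 1.4% as lower. At an unadjusted p under 0.05, 9 histone genes passed, all higher in deficient cells, and DESeq2 called 4 higher and 0 lower. The log2 difference was above 0 for 20 of the 23 genes, against 49.2% of all genes, and its median was 0.49, against 0.00 for all genes (−0.0037). These 23 genes passed a filter on low counts and share sequence and libraries, so neither value is a test of the family.

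Hist1h2bc was at 16.2, 15, 12.2 and 12.5 CPM in deficient MZ replicates 1, 2, 7 and 8 and at 7.14, 8.91, 9.05 and 8.26 in control MZ replicates 3, 4, 5 and 6. Every deficient library was above every control library. The gene rose from 8.34 ± 0.872 to 14 ± 1.93 CPM (log2 0.73, SE 0.13, edgeR adjusted p = 0.00573), and the call held with each library left out. Hist1h2bc spans chr13:23684199-23692908 and is 1 of 5 of the 64 genes with more than 1 annotated exon. Of its 100-base windows, 74.6% are unique, and it shares 206 of 1057 with Hist1h2bg. Hist1h2bg was not called (log2 0.58, edgeR adjusted p = 0.459).

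Hist1h1c, at chr13:23738808-23740367, was at 21.9, 17.7, 20.8 and 18.7 CPM in deficient MZ replicates 1, 2, 7 and 8. In control MZ replicates 3, 4, 5 and 6 it was at 11.1, 15.5, 14.8 and 13.2 CPM. The groups did not overlap, and control replicate 3 was the lowest library. The gene rose from 13.6 ± 1.99 to 19.8 ± 1.91 CPM (log2 0.53, SE 0.12, edgeR adjusted p = 0.0238). Without control replicate 3 the log2 difference was 0.44 (edgeR quasi-likelihood, adjusted p = 0.0667), without control replicate 6 it was 0.51 (adjusted p = 0.0674, edgeR) and without deficient replicate 7 it was 0.50 (adjusted p = 0.0547, edgeR). The call was also lost with all 12 libraries in one edgeR fit (adjusted p = 0.0907).

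Other H1 genes were not called. Hist1h1e was at 4.62, 8.41, 7.04 and 6.76 CPM in deficient and 4.99, 4.28, 3.44 and 3.52 in control MZ libraries, in the same order of replicates. Deficient replicate 1 fell among the control libraries and the other 3 deficient libraries were above them all (log2 0.72, SE 0.19, edgeR adjusted p = 0.0559). Without deficient replicate 1 the adjusted p was 0.015 (edgeR quasi-likelihood) and the log2 difference 0.86. DESeq2, a fit without the filter and a fit of all 12 libraries also called it higher. Hist1h1e shares exon bases with Hist1h2be on the same strand, 25.7% of its own and 11.2% of those of Hist1h2be, so reads there could belong to either gene. Hist1h1d (log2 0.62, edgeR adjusted p = 0.216) and Hist1h1b (log2 0.53, adjusted p = 0.479) were not called.

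Among core histone genes, 3 that were not called had groups that did not overlap. With Hist1h2bc and Hist1h1c this makes 5 tested genes with every deficient library above every control library, against 6.31% of all genes tested, and none (0) the other way, against 5.58%. Hist2h4, an H4 gene, was at 2.37, 2.32, 2.67 and 2.5 CPM in deficient and 1.53, 1.53, 0.836 and 1.71 in control MZ libraries (log2 0.81, SE 0.24, edgeR adjusted p = 0.0838). Control replicate 5 was the lowest for Hist2h4, and DESeq2 and the fit of all 12 libraries called the gene higher. Hist1h2ao was at 7.52, 7.46, 5.02 and 5.12 CPM in deficient and 4.57, 4.5, 4.16 and 4.51 in control MZ libraries (log2 0.49, SE 0.17, edgeR adjusted p = 0.125). Deficient replicates 1 and 2 were above replicates 7 and 8 for Hist1h2ao, and the latter lay close to the controls. Hist1h2bq was at 1.67, 1.56, 1.04 and 0.929 CPM in deficient and 0.766, 0.723, 0.86 and 0.713 in control MZ libraries (log2 0.75, SE 0.28, edgeR adjusted p = 0.159).

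The remaining named core histone genes overlapped between deficient and control MZ cells. Of the H2B genes, Hist2h2be was at 8.03 ± 0.972 and 6.29 ± 1.28 CPM, Hist3h2ba at 1.69 ± 0.465 and 1.99 ± 0.397, and Hist1h2be at 6.33 ± 1.66 and 7.52 ± 2.14 (deficient and control MZ, n = 4 each). Hist3h2ba (log2 −0.25), Hist1h2be (−0.26) and Hist4h4 (−0.42), an H4 gene, were the 3 genes with a log2 difference below 0. The H2A gene Hist3h2a was at 6.84 ± 0.868 and 5.92 ± 0.754 CPM. Of the exon bases of Hist3h2a, 33.0% are shared with Trim17 on the same strand. Hist2h2ac, another H2A gene, was at 0.645 ± 0.407 and 0.593 ± 0.237 CPM, with a wide spread among deficient libraries (1.23, 0.419, 0.325 and 0.609 CPM). The H4 genes Hist1h4i (log2 0.24), Hist1h4d (0.20) and Hist1h4c (0.52) and the H3 gene Hist1h3e (0.52) were not called.

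**Figure D3:**
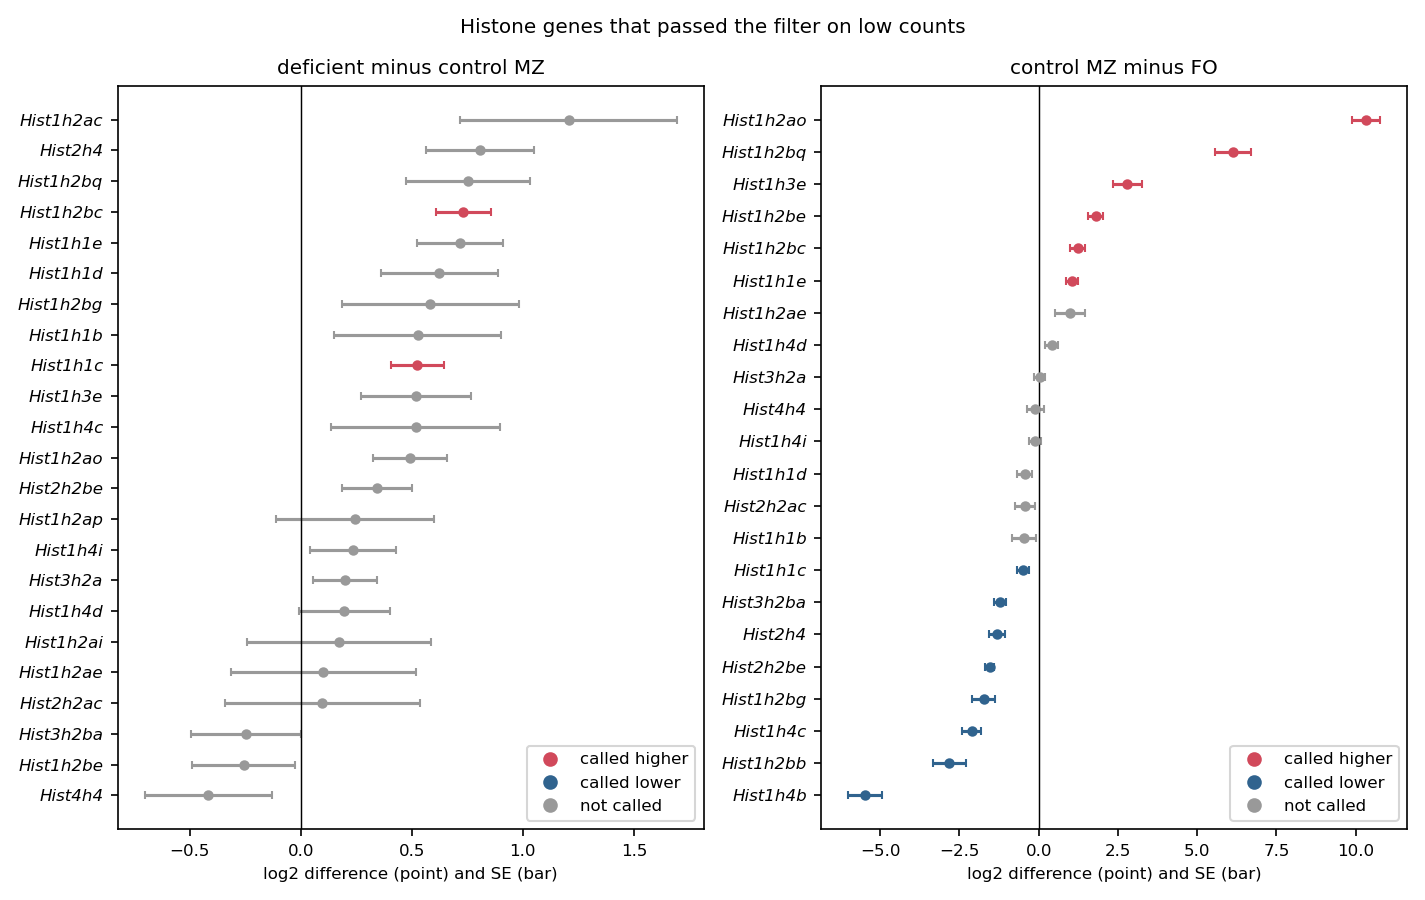
Log2 difference (points) with its SE (bars) for each tested histone gene, deficient minus control MZ on the left (23 genes) and control MZ minus FO on the right (22 genes), sorted by difference on separate scales. Colour marks genes called higher or lower by edgeR's quasi-likelihood test. On the left 20 genes lie above 0 and 2 are called, whereas on the right 6 are called higher and 8 lower.

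The authors' deposited table for this comparison gives an adjusted p for 23 histone genes and has 4 of them higher and 0 lower at an adjusted p under 0.05, against 4.12% higher and 3.51% lower of its 13775 genes (7.64% in all). They are Hist1h1c (log2 0.44), Hist1h2bc (0.61), Hist1h1e (0.49) and Hist2h4 (0.46) in the authors' deposited table.

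No gene of 3 lists related to histones was called by edgeR between deficient and control MZ cells, where 3.7% of all genes tested were called. These were the replacement histones (0 of 9 tested), the factors that make, process and degrade histone mRNA (0 of 23) and the histone chaperones (0 of 23). At an unadjusted p under 0.05, 4 genes of each list passed, and DESeq2 called 1 replacement histone higher, 1 mRNA factor higher and 1 lower, and 2 chaperones higher and 1 lower. Their medians were 0.11, −0.04 and 0.03 on the log2 scale, against 0.00 (−0.0037) for all genes. Slbp, which binds the stem-loop, was at 119 ± 4.31 and 116 ± 9.07 CPM in deficient and control MZ cells (log2 0.03, SE 0.07, edgeR adjusted p = 0.856). Npat, which activates histone gene transcription, was at 35.9 ± 4.57 and 42.2 ± 2.71 CPM (log2 −0.24, SE 0.09, edgeR adjusted p = 0.179). Slbp and Npat were chosen after their values were seen.

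Of 40 genes of DNA replication and S phase, 4 were higher in deficient MZ cells and 0 lower, against 2.29% and 1.4% of all genes tested. The median log2 difference was 0.05, against 0.00 (−0.0037) for all genes. At an unadjusted p under 0.05, 10 of the 40 passed, and DESeq2 called 6 higher and 0 lower. E2f2, an E2F transcription factor, rose from 46.1 ± 2.86 to 70.3 ± 4.05 CPM (log2 0.60, SE 0.07, edgeR adjusted p = 0.000396). Rrm2, a subunit of ribonucleotide reductase, rose from 5.81 ± 1.13 to 10.4 ± 1.91 CPM (log2 0.83, SE 0.16, edgeR adjusted p = 0.0133). Ccna2, the S phase cyclin A, rose from 2.24 ± 0.238 to 4.28 ± 0.889 CPM (log2 0.93, SE 0.19, edgeR adjusted p = 0.0166). Cdc6, which loads the replicative helicase, rose from 0.915 ± 0.424 to 2.85 ± 1.07 CPM (log2 1.62, SE 0.35, edgeR adjusted p = 0.02). Their part in the higher histone counts was not tested.

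Sums of T cell, macrophage and erythroid markers overlapped between the MZ groups, and those of plasma cell and germinal centre markers were lower in deficient cells without overlap. The sum of general B cell markers was higher in deficient cells, also without overlap. The markers called stand against 2.29% of all genes tested called higher and 1.4% called lower. The summed level of 8 T cell markers was 39.8 to 45.8 CPM in deficient and 37.2 to 48.4 in control MZ libraries. Most of it was Lck, which was not called (39.6 ± 2.54 and 41.5 ± 4.72 CPM). Of 3 tested markers, 2 were higher in deficient cells. Cd8a rose from 0.474 ± 0.108 to 1.96 ± 1.12 CPM (log2 2.04) and Tcf7 from 0.183 ± 0.0933 to 1.03 ± 0.627 (log2 2.46). Cd3e and Cd4 were at 0 in all control libraries. Of 9 macrophage markers, 1 of 7 tested, Adgre1, was higher, with sums of 25.7 to 36.6 and 24.6 to 28.4 CPM. Of 9 erythroid markers, 1 of 8 tested, Hbb-bt, was higher, 6 of 8 reached an unadjusted p under 0.05, and the median log2 difference was 1.64. The haemoglobin genes Hba-a2, Hbb-bs and Hba-a1 were at log2 2.21, 2.10 and 1.84 (edgeR adjusted p = 0.06, 0.127 and 0.0846), and the red cell membrane gene Slc4a1 at 2.54 (edgeR adjusted p = 0.0804). The erythroid sums were 37 to 54 and 31.2 to 46.6 CPM, mostly Tfrc (29.9 ± 1.81 and 30.8 ± 2.83 CPM), which proliferating cells also express. Without Tfrc they were 26.2, 16, 18.9 and 7.94 CPM in deficient replicates 1, 2, 7 and 8 and 1.61, 2.03, 11.8 and 4.64 in control replicates 3, 4, 5 and 6. Of 6 plasma cell markers, 1 of 5 tested, Irf4, was lower, with sums of 313 to 355 and 379 to 397 CPM. For 6 germinal centre markers, 0 of 4 tested were called, with sums of 33.4 to 36 and 39 to 41.2 CPM. Of dendritic, platelet and general B cell markers, 0 of 5, 0 of 4 and 0 of 6 tested were called, and of neutrophil markers 0 were tested. The sum of general B cell markers was 14900 to 16800 CPM in deficient and 13900 to 14800 in control MZ libraries. At an unadjusted p under 0.05, 2 T cell, 1 macrophage, 3 plasma cell, 2 germinal centre, 1 dendritic, 0 platelet and 3 general B cell markers passed, and of the last 4 lists DESeq2 called 1, a germinal centre marker, higher. The part of these cells in the histone values was not tested.

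The comparison of control MZ with FO cells contrasts the B cell subsets, together with everything else that differs between these libraries. Of 22 histone genes tested, 6 were higher in control MZ and 8 lower, and 8 were not called. Of all 13843 genes tested, 81.5% were called, 42.6% as higher and 38.8% as lower, so the share of histone genes called, 63.6%, was below that of all genes. These shares are not matched for level, and most histone genes had low counts. The groups did not overlap for 13 of the genes, 6 with control MZ above FO (39.7% of all genes) and 7 below (37.2%). The median log2 difference was −0.28, against 0.05 for all genes, and is the same with Hist1h2ao, which has no FO count, set at its bound. Of the genes called, 4 passed the filter on low counts with no library of the other group past its limit, so the filter fixed their direction: Hist1h2ao and Hist1h2bq through control MZ libraries, and Hist1h4b and Hist1h2bb through FO libraries. Their values are given as descriptions, with no test. Without them, 4 of 18 genes were higher and 6 lower (55.6% called). Of these, Hist1h3e, Hist1h2ae, Hist1h4c, Hist1h2bg and Hist1h1b had 1 to 3 libraries of their lower group past the limit. The filter asks for 4 libraries, so these genes passed only with libraries of their higher group, and the filter could favour their direction.

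Of the H2A and H2B genes, 4 were higher in control MZ cells, among them Hist1h2ao and Hist1h2bq, whose direction the filter fixed. Hist1h2ao was at 4.57, 4.5, 4.16 and 4.51 CPM in control MZ replicates 3, 4, 5 and 6 and had no count in FO replicates 3, 4, 7 and 8. Against the limit that a count of 0 allows, 3 counts over the 4 FO libraries or 0.0197 CPM of the library totals, it was at least 245-fold higher in control MZ and at least 338-fold higher in deficient MZ cells. Hist1h2ao shares 353 of its 381 100-base windows with Hist1h2ap, which had 54 counts over the 4 control MZ libraries, 58 over the deficient MZ libraries and 2 over the FO libraries.

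Hist1h2bq was at 0.766, 0.723, 0.86 and 0.713 CPM in control MZ libraries, and the FO libraries held 1 count in all. The ratio of library shares was 127 for control MZ over FO, with a 95% counting interval of 22.4 to 5070. Of its 2015 windows, 1911 are shared with Hist1h2br. Such intervals cover counting error only.

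Hist1h2be was at 9.51, 7.47, 4.56 and 8.54 CPM in control MZ and 2.13, 1.77, 2.73 and 2.11 in FO libraries, all of the former above the latter (log2 1.79, SE 0.23, edgeR adjusted p = 1.34e-05). Hist1h2bc was at 5.18, 4.24, 2.67 and 2.3 CPM in FO libraries, below every control MZ library (log2 1.23, SE 0.22, edgeR adjusted p = 0.00027). It was therefore called higher in deficient than in control MZ and higher in control MZ than in FO cells, comparisons that share the control MZ libraries.

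The other genes called higher in control MZ were Hist1h3e and Hist1h1e. Hist1h3e, the only H3 gene tested, was at 1.28, 1.53, 0.931 and 1.2 CPM in control MZ and 0.126, 0.348, 0.213 and 0.0281 in FO libraries, with no overlap (log2 2.80, SE 0.45, edgeR adjusted p = 9.19e-05). Only 1 FO library was past the filter's limit for Hist1h3e, so the filter could favour this direction. Hist1h1e was at 2.26, 2.02, 2 and 1.55 CPM in FO libraries, below every control MZ library (log2 1.06, SE 0.19, edgeR adjusted p = 0.000233).

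Lower in control MZ were 4 H2B genes, 3 H4 genes and Hist1h1c, among them Hist1h2bb and Hist1h4b, whose direction the filter fixed. Hist2h2be, at chr3:96221119-96223738, was at 7.83, 4.76, 5.95 and 6.6 CPM in control MZ replicates 3, 4, 5 and 6 and at 21.7, 16.8, 18.5 and 17 in FO replicates 3, 4, 7 and 8. Every FO library was above every control MZ library (log2 −1.55, SE 0.15, edgeR adjusted p = 7.79e-07). All of its windows are unique (100%). Hist3h2ba was at 2.2, 2.41, 1.86 and 1.5 CPM in control MZ and 5.65, 4.65, 4.25 and 4.08 in FO libraries, again without overlap (log2 −1.21, SE 0.19, edgeR adjusted p = 7.92e-05).

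Hist1h2bg was at 0.544, 0.321, 0.454 and 0.204 CPM in control MZ and 2.04, 1.14, 0.941 and 1.04 in FO libraries (log2 −1.73, SE 0.36, edgeR adjusted p = 0.000744). For Hist1h2bg, 3 control MZ libraries were past the filter's limit, so the filter could favour this direction. Hist1h2bb was at 0.0988, 0.0268, 0.0717 and 0 CPM in control MZ libraries, 8 counts in all, and 0.377, 0.411, 0.364 and 0.365 in FO libraries, 50 counts in all. Neither gene's groups overlapped. Besides Hist1h2bb and Hist1h2bq, the H2B genes Hist1h2be and Hist1h2bc were higher in control MZ and Hist2h2be, Hist3h2ba and Hist1h2bg lower, so the direction differed within the family.

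The H4 genes called were lower in control MZ, for Hist1h4b in a direction that the filter fixed. Hist1h4c was at 0.321, 0.241, 0.382 and 0.153 CPM in control MZ and 1.1, 1.33, 1.12 and 1.29 in FO libraries (log2 −2.11, SE 0.30, edgeR adjusted p = 3.08e-05). For Hist1h4c, 2 control MZ libraries were past the filter's limit, so the filter could favour this direction. Hist2h4 was at 3.98, 4.18, 3.22 and 2.53 CPM in FO libraries, above every control MZ library (log2 −1.30, SE 0.25, edgeR adjusted p = 0.000432). Its deficient MZ libraries lay above the control MZ libraries, and the highest of them, replicate 7, was above the lowest FO library. Hist1h4b had 2 counts over the control MZ libraries, 2 over the deficient MZ libraries and 94 over the FO libraries. The ratio of library shares, FO over control MZ, was 45.0 with a 95% counting interval of 12.1 to 377. Exons of 4930558J22Rik lie opposite 56.2% of the exon bases of Hist1h4b. The sources used here do not say whether counting used strand. Hist1h4i (log2 −0.13), Hist1h4d (0.41) and Hist4h4 (−0.10) were not called.

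Hist1h1c was the 1 gene called whose groups overlapped. Its FO libraries, replicates 3, 4, 7 and 8, held 28.3, 20.2, 15 and 13.9 CPM, from above every MZ library to within the control MZ range (log2 −0.49, SE 0.20, edgeR adjusted p = 0.0369). Without FO replicate 3 the log2 difference was −0.26 (edgeR quasi-likelihood, adjusted p = 0.127). The call was also lost without FO replicate 4 and without control MZ replicate 3, 5 or 6, with edgeR adjusted p-values of 0.0564, 0.104, 0.0501 and 0.0732. The linker genes Hist1h1d (log2 −0.44) and Hist1h1b (−0.46) and the H2A genes Hist3h2a (0.03), Hist2h2ac (−0.44) and Hist1h2ae (0.99) were not called.

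**Figure D4:**
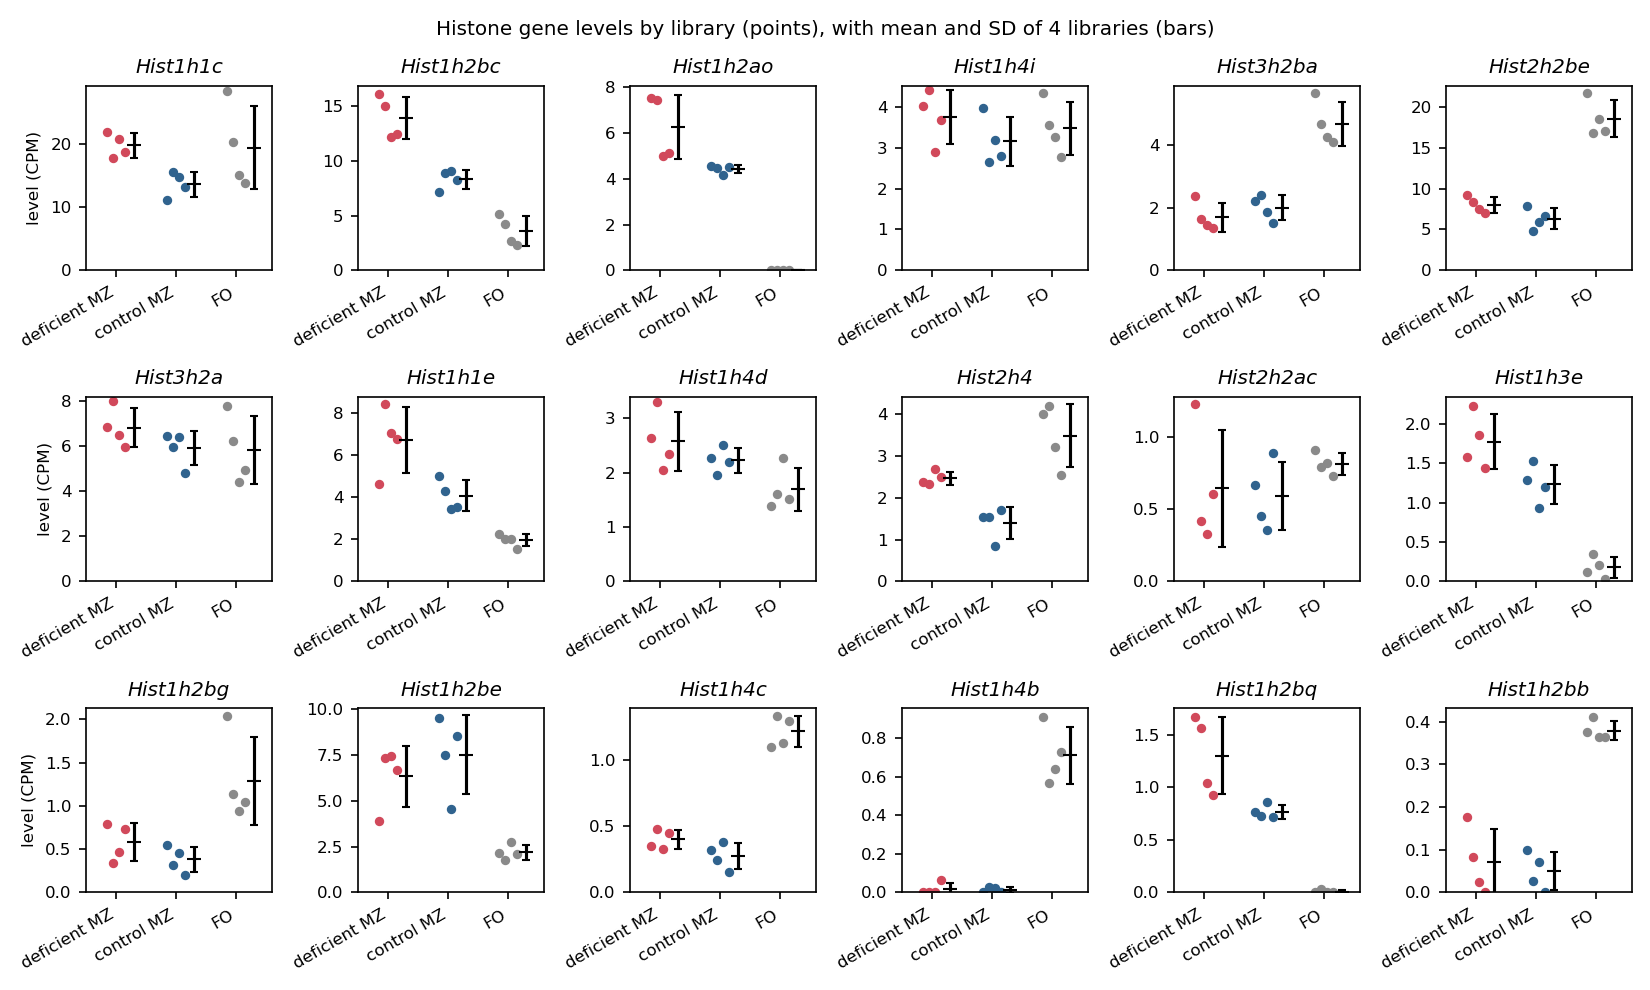
Level in CPM (vertical axes, from 0, each on its own scale) of 18 histone genes in the 12 libraries, ordered by level per kb. Points are libraries, and bars are the mean and SD of 4 libraries in deficient MZ, control MZ and FO cells. Hist1h2bc and Hist1h1c are higher in all 4 deficient than in all 4 control MZ libraries, Hist1h2ao is at 0 in all FO libraries, and Hist2h2be and Hist1h4c are highest in FO libraries.

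Genes with more and with less unique sequence differed in opposite directions in sum between control MZ and FO cells, at a limit of 90% unique windows that was chosen after the values were seen. This is a description with no test. The summed level of the 11 genes with at least 90% unique windows was 27.4 to 28.6 CPM in control MZ and 41.8 to 65.2 in FO libraries, and that of the 53 others 36.9 to 44.3 and 20.8 to 30.3. The first sum was lower in control MZ and the second higher, without overlap in either. A few genes made up much of both differences. In the first set the largest was Hist2h2be, with means of 6.29 CPM in control MZ and 18.5 in FO cells. In the second they were Hist1h2be (7.52 and 2.19 CPM), Hist1h2bc (8.34 and 3.6) and Hist1h2ao (4.43 and 0). Hist1h2be, with 87.9% unique windows, lies just under the limit. Among the 18 tested genes left without Hist1h2ao, Hist1h2bq, Hist1h4b and Hist1h2bb, edgeR called 0 higher and 4 lower of the 8 with at least 90% unique windows, and 4 higher and 2 lower of the 10 others. Of those 8, 0 were higher at an unadjusted p under 0.05. Reads were pairs in MZ and single ends in FO libraries, and the part of read layout in this split was not tested. Between deficient and control MZ, which share the layout, the first sum was 35 to 41.2 CPM and the second 48.5 to 59.7 in deficient libraries, both above the control MZ ranges.

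**Figure D5:**
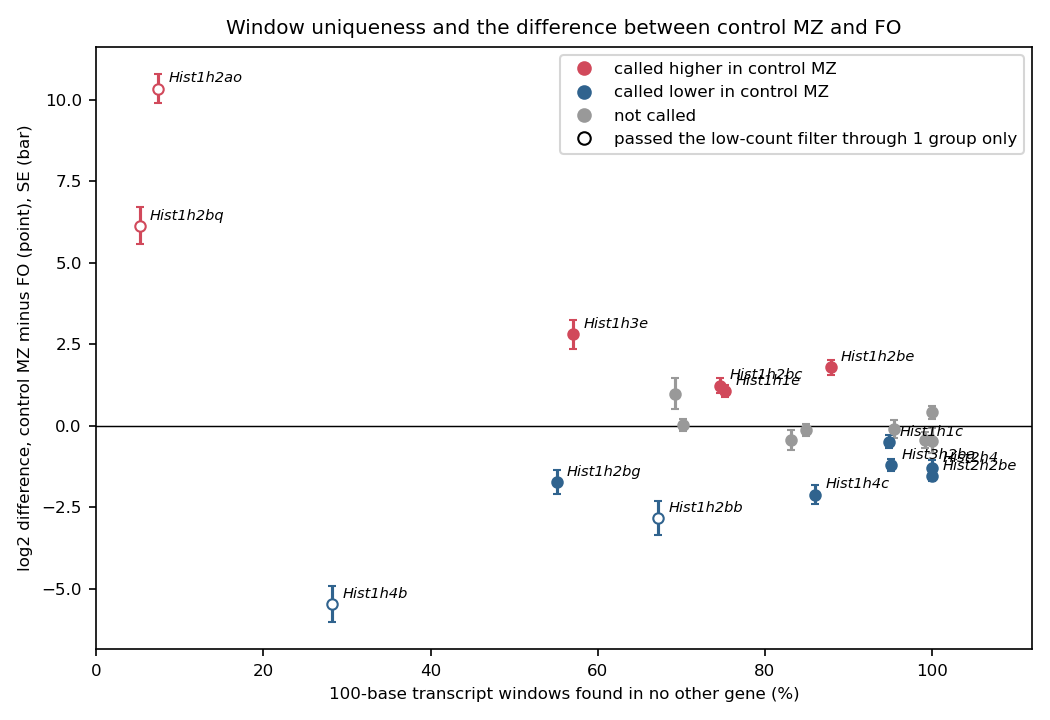
Share of a gene's 100-base transcript windows that occur in no other annotated gene (horizontal axis, in percent) against the log2 difference, control MZ minus FO (vertical axis), for the 22 histone genes tested. Points are genes and bars the SE, and open points are the 4 genes that passed the filter through 1 group only; the fitted value of Hist1h2ao, with no FO count, is not a measure of its fold. The 4 filled points called higher lie at 57.1% to 87.9%, and at 90% or more the 4 genes called are all lower.

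In the authors' deposited table for control MZ and FO cells, 9 histone genes were higher and 16 lower of the 51 with an adjusted p, against 36.1% and 29.6% of its 19921 genes (65.7% in all). All 14 genes called here have the same direction and an adjusted p under 0.05 in the authors' deposited table, which comes from the same libraries. For Hist1h2ao, Hist1h2bq, Hist1h4b and Hist1h2bb the filter fixed the direction of the call here, so their match adds no support.

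The lists related to histones held genes called in both directions between control MZ and FO cells, as did all genes tested, with 42.6% higher and 38.8% lower (81.5% in all). The median log2 difference of all genes was 0.05. Of 9 replacement histones, 6 were higher and 2 lower in control MZ, with a median log2 difference of 0.53. H3f3a fell from 1161 ± 78.6 to 163 ± 17.8 CPM (log2 −2.82), and 79.2% of its windows are unique. H2afj, H2afx and H2afv, variants of H2A, were higher in control MZ (log2 1.94, 1.78 and 1.07). Of 23 genes that make, process or degrade histone mRNA, 7 were higher and 11 lower, with a median of −0.03. They include Sympk, the scaffold of the cleavage complex (log2 −1.77), Srrt, which links it to the cap-binding complex (−1.29), Tut7, a uridylyltransferase (−0.89), and Lsm1, part of an mRNA decay ring (1.21). Slbp, chosen after its value was seen, was higher in control MZ, at 116 ± 9.07 against 72.8 ± 2.15 CPM (log2 0.68, SE 0.06, edgeR adjusted p = 2.02e-07).

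Of 23 histone chaperones, 9 were higher and 12 lower in control MZ, with a median of −0.20. The counts here stand against 42.6% of all genes called higher and 38.8% called lower. Those with the smallest p were Nap1l1 (log2 −2.49), Supt16 (−2.14), Nasp (−1.41) and Supt6 (−1.77). Of the 40 replication genes, 11 were higher and 16 lower, with a median of −0.16. Those with the smallest p were Fen1 (log2 −6.35), Pold1 (−1.15), Pcna (−0.94) and Prim1 (−1.23), all lower in control MZ. Exons of other genes lie opposite 84.2% of the exon bases of Fen1. The summed level of 6 germinal centre B cell markers was 39 to 41.2 CPM in control MZ and 191 to 212 in FO libraries, with 5 of 6 lower and 1 higher in control MZ and none at 0 throughout. Platelet markers were higher in control MZ for 4 of 4 tested, with sums of 10.6 to 18.2 and 3.25 to 3.99 CPM, and macrophage markers for 6 of 8, with 1 lower and sums of 24.6 to 28.4 and 14.1 to 31.1 CPM. Of 3 T cell, 4 dendritic and 5 erythroid markers tested, 1, 2 and 1 were higher and 1, 0 and 1 lower. The erythroid sums were 31.2 to 46.6 CPM in control MZ and 99.5 to 107 in FO libraries, without overlap. Without Tfrc they were 1.61 to 11.8 and 1.88 to 7.43 CPM and overlapped. The sum of 6 plasma cell markers was 379 to 397 and 305 to 330 CPM, with 2 of 5 tested higher and 3 lower. The part of such cells in the histone values was not tested.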

How the data were processed

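RNA was sequenced from 12 libraries, 4 for each of deficient MZ, control MZ and FO cells, grouped by the labels' genotypes and cell types. The submitters' processing notes name build GRCm38 and the tools TopHat2 2.0.12, Trim Galore, DESeq2 1.10.1 and HTSeq. Annotation release and strand setting were not given there or in the labels. The authors deposited raw counts, whole numbers of reads for each Ensembl gene in each library, without pooling. The authors' deposited normalised signal was not used. The authors' deposited result tables give log2 fold changes and adjusted p-values, which were only copied.

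Of the 43629 gene IDs, 42462 matched GENCODE M21. These counts were fitted with edgeR 4.0.16 in R 4.3.3 (quasi-likelihood test, TMM scaling, default filter on low counts by group, Benjamini-Hochberg adjustment, threshold 0.05), each comparison on its own 8 libraries. DESeq2 1.42.0 served as an alternative. The procedure was tested on simulated counts. Levels are CPM with TMM scaling over all 12 libraries, and levels per kb divide by the union of exon bases. A window of 100 transcript bases is unique if no other gene's transcript holds it on either strand. No 2 libraries were identical, and the chi-square per gene between replicates of a group was 5.78 to 48.6, above sampling noise. It was 25.9 to 48.6 between deficient MZ replicate 1 and the other deficient libraries, and 12.7 to 15.9 among those others. The lowest values were for FO replicates 7 and 8 (5.78) and control MZ replicates 3 and 4 (6.48).

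Members and gene lists were chosen with earlier results of these data known. Named are Zfp36l1, every histone gene called in either comparison, the 12 highest per kb, the highest of each family, and up to 4 called genes with the smallest p of each list of replacement histones, histone mRNA factors, chaperones and replication genes; other genes named were chosen after their values were seen. Alternatives were another scaling, DESeq2, no filter, one fit of 12 libraries, leaving out each library, a replicate block and, added after seeing the data, only genes with at least 90% unique windows or without genes that passed the filter through 1 group only.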

Additional observations from a re-analysis of the deposited data

Results flagged for a closer look

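Of 75 groups of 4 libraries examined, 3 held a library whose gap to the nearest of the others, divided by the group's range, exceeded Dixon's 95% critical value, which chance exceeds in about 1 in 20 groups. Hist1h4b stood at 0.0641 CPM in deficient MZ replicate 8 and at 0 in the other 3 deficient libraries, a difference of 2 counts. Hist1h2bq stood at 0.0316 CPM in FO replicate 4 and at 0 in the other 3 FO libraries, a difference of 1 count. The summed level of the 13 H4 genes was 9.86 CPM in control MZ replicate 3 and 7.63 to 8 in the other control MZ libraries.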

How the results depend on the processing

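Counts of called histone genes depended on the filter, the tool and sequence uniqueness. In deficient against control MZ cells, 2 were higher, against 4 with DESeq2, 1 among genes with at least 90% unique windows and 1 to 3 with a library left out; 0 were lower throughout. In control MZ against FO cells, 6 were higher and 8 lower. DESeq2 gave 9 and 16, no filter 10 and 16, genes with at least 90% unique windows 0 and 4, without the 4 genes that passed the filter through 1 group only 4 and 6, and leaving out a library 6 to 10 and 8 to 11, the 10 without FO replicate 7. More genes are tested without the filter and with DESeq2, and fewer in the unique set. Adding the replicate number as a block left 6 higher and 8 lower and changed no call of a named gene. Same-numbered control MZ and FO libraries differ in genotype by their labels, and their deviations from the group means correlated at −0.0383 and −0.0736. These correlations cannot tell whether such libraries shared a batch.

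The summed level was 90.5, 67.8 and 75.6 CPM in deficient MZ, control MZ and FO cells. Without Hist1h1c it was 70.8, 54.1 and 56.2, by construction, and with library totals alone control MZ was at 73.8. With a library left out the ranges were 88.6 to 92.9, 66.4 to 68.6 and 68.9 to 79.9. No gene called in the reported fit or in an alternative changed direction under any alternative run. Among named genes not called, Hist2h2ac between MZ groups (log2 0.10) ran from −0.417 to 0.36 with a library left out, negative without deficient replicate 1 (−0.417) and control replicates 4 (−0.0045) and 5 (−0.0863). Hist3h2a between control MZ and FO cells (log2 0.03) was at −0.0024 without the filter, −0.156 with the replicate block and −0.0972 to 0.188 with a library left out. The call of Hist1h1c was lost in the cases given with its values, and calls were gained by Hist1h1e and Hist2h4 between MZ groups and, without FO replicate 7, by Hist1h4d between control MZ and FO cells (edgeR quasi-likelihood, adjusted p = 0.0276); the causes were not tested. Of the 39 genes too low to be tested in either comparison, DESeq2 and the fit without the filter each called 1 as higher and 8 as lower between control MZ and FO cells (control MZ minus FO), and 0 between MZ groups; the other 30 were called by neither.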
